A study of Sus scrofa with 24 samples.

Results

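Intramuscular fat cells of the pig were compared before adipogenic induction (IMF-0d) and on day 8 of differentiation (IMF-8d) by their small RNA. The entries compared were all those of the miRNA table whose mean reached 1 TPM over its 24 libraries, 430 of 1587, in 3 libraries a day and 6 in all. Of the 430 tested entries, 270 carry miRBase names (known) and 160 were predicted from the reads of the study (new, written novel_miR). The cells were digested from the longissimus dorsi muscle of six-day-old Yorkshire piglets and grown to near confluence, which is IMF-0d. They then received IBMX, dexamethasone and insulin in serum medium until day 2, insulin alone until day 4, and growth medium until they were collected as IMF-8d. Cells from the back subcutaneous fat of six-day-old Yorkshire piglets, induced in the same way (BF-0d and BF-8d, 3 libraries each), served only to show where the intramuscular change differed. No group carried a transgene or a drug beyond these media. The cultures are primary isolates from 3 piglets, the libraries are not tied to single piglets, and all cells of a dish were sequenced together, so a miRNA present in fewer cells and a lower level per cell cannot be told apart.

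A miRNA is a short RNA that guides a silencing complex to messenger RNAs, mainly through its seed, the bases that follow its first base at the 5' end. Preadipocytes become fat cells when PPARG and the C/EBP factors are switched on while WNT signalling and other mesenchymal programmes recede, and miRNAs have been described that promote or restrain each of these steps. Both arms of a miRNA hairpin can be kept, and related miRNAs with one seed are read as a family.

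The 6 libraries held from 9143123 to 14961353 reads on miRNAs, so 1 read was worth from 0.0668 to 0.109 TPM and 3 reads, the floor used here, from 0.201 to 0.328 TPM. Such floors cover counting error only. Between 89.0% and 92.4% of a library's reads fell on its 10 most abundant miRNAs, and between 0.356% and 0.433% on new entries. Replicates spread far beyond counting noise, since their chi-square, divided by its degrees of freedom, was 56.9 or more for every pair. The mesenchymal miRNAs miR-143-3p, miR-145-5p, miR-199a-3p, miR-199a-5p and miR-214-3p summed to between 79238 and 103219 TPM in each library, and no miRNA marks fat cells alone. Of the markers of other cells, the red cell miRNA miR-144 and the white cell miRNAs miR-223 and miR-150 were at 0 reads in all 6 libraries, miR-451 stayed at or under 0.535 TPM, the 4 white cell markers together reached at most 1.07 TPM, the 4 epithelial markers summed to at most 0.547 TPM, and the endothelial miR-126-3p lay between 17.4 and 40.2 TPM on both days. The liver miRNA miR-122-5p lay between 5.03 and 12.1 TPM on day 0 and between 8.09 and 14.9 TPM on day 8. The muscle miRNA miR-1 was high on both days, at 1282 ± 411 TPM (SD, n = 3) in IMF-0d and 1228 ± 334 TPM (SD, n = 3) in IMF-8d. miR-206 and miR-133b, which mark muscle cells most narrowly, stayed under 1 TPM, and the whole muscle list of 5 summed to between 909 and 1738 TPM on day 0 and between 982 and 1631 TPM on day 8.

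The mature sequences of the miRNAs on which the results turn are printed here as DNA letters with the seed, bases 2 to 8, in capitals. A set of miRNAs called higher is shown because the sections on families and single miRNAs turn on them, and it is not a ranking by size of change. In it miR-146a-5p and miR-146b share the seed GAGAACT and miR-30a-5p, miR-30b-5p, miR-30c-5p and miR-30d the seed GTAAACA.
ssc-miR-146a-5p: tGAGAACTgaattccatgggtt
ssc-miR-146b: tGAGAACTgaattccataggc
ssc-miR-452: aACTGTTTgcagaggaaactga
ssc-miR-224: cAAGTCACtagtggttccgttta
ssc-miR-30a-5p: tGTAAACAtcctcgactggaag
ssc-miR-30b-5p: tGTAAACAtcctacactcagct
ssc-miR-30c-5p: tGTAAACAtcctacactctcagc
ssc-miR-30d: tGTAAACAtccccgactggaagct
ssc-miR-218: tTGTGCTTgatctaaccatgt
ssc-miR-218b: tTGTGCTTgatctaaccatgtg
ssc-miR-486: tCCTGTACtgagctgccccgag
ssc-miR-210: cTGTGCGTgtgacagcggctga
ssc-miR-129b: cTTTTTGCggtctgggcttgc
ssc-miR-181b: aACATTCAttgctgtcggtgggtt

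A smaller set shows some of the miRNAs called lower, with the passenger arm of miR-7 and the new miRNA with the deepest fall, and these share no seed with each other.
ssc-miR-7-5p: tGGAAGACtagtgattttgttgtt
ssc-miR-7-3p: cAACAAATcacagtctgccata
ssc-miR-7857-3p: aTTGTTCTccaacctggctctt
ssc-miR-7139-5p: cCATTCCTtcgtctgtgcactag
ssc-miR-219a: aGAGTTGAgtctggacgtcccg
ssc-miR-130a: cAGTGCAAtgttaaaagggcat
novel_miR_667: tGTGGCTGtggcgtatgccaac

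Positions are those of the hairpins in Sscrofa11.1. The hairpin of miR-146a lies on the minus strand of chromosome 16 from 63044261 to 63044338, between genes. miR-452 and miR-224 lie about 1 kb apart on chromosome X (123284480 to 123284559 and 123283427 to 123283507, minus strand) in an intron of GABRE. The miR-218 hairpin lies in an intron of SLIT2 on chromosome 8 (15047602 to 15047683, plus strand) and that of miR-218b in an intron of SLIT3 on chromosome 16 (55115926 to 55116009, plus strand). miR-30b and miR-30d share a stretch of chromosome 4 (6952794 to 6952869 and 6948669 to 6948747, plus strand), and miR-30a and miR-30c share an intron of LOC102157778 on chromosome 1 (51412827 to 51412933 and 51383782 to 51383861, minus strand). miR-486 lies in an intron of ANK1 on chromosome 17 (10758818 to 10758899, minus strand), miR-210 between genes on chromosome 2 (335271 to 335346, minus strand), and miR-7 in an intron of HNRNPK on chromosome 10 (30986180 to 30986288, plus strand). novel_miR_667 was predicted in an intron of SNX4 on chromosome 13 (134833792 to 134833903), on the strand opposite to the gene, in sequence that the assembly masks as repeat over its full length.

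The comparison asked which miRNAs differ between undifferentiated and differentiated intramuscular cells. A DE-miRNA was called at a Benjamini-Hochberg FDR under 0.05 by limma on log2(TPM + 1) and a fold change above 1.5. A log2 fold change is the difference of the mean log2(TPM + 1), day 8 minus day 0, given with its standard error (SE), and it understates the change of entries near 1 TPM. In all, 131 of 430 entries (30.5%) were called, 85 higher on day 8 (19.8%) and 46 lower (10.7%). Of the known miRNAs, 71 of 270 were called higher (26.3%) and 11 lower (4.07%). Of the new entries, 14 of 160 were called higher (8.75%) and 35 lower (21.9%). In all 131 called entries the 3 libraries of one day lay on one side of the 3 of the other, which was true of 210 of the 430 tested (48.8%). The ratio of mean TPM passed 2 in 48 of the 85 higher entries and, in the other direction, in 26 of the 46 lower ones. For a single miRNA, an exact permutation test of 3 against 3 libraries cannot go below 0.1, which is the value of each called entry.

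These directions are relative to the total of miRNA reads, and one miRNA took much of that total. miR-21-5p, which is abundant in many mesenchymal cells, held 60.5%, 53.001% and 58.9% of the reads in the IMF-0d libraries and 45.0%, 43.2% and 39.4% in the IMF-8d libraries. Its log2 fold change of -0.43 ± 0.19 (SE) did not pass the test (limma, adjusted p = 0.124), although the libraries of the 2 days did not overlap. When TPM was recomputed without miR-21-5p, the log2 fold changes moved by a median of -0.43, the median of the tested entries went from 0.07 to -0.26, and 29 entries were called higher and 97 lower. All 46 falls were called on that scale, and 29 of the 85 rises. With median-of-ratios scaling, 68 entries were called higher and 63 lower, among them 67 of the 85 rises and all 46 falls. The balance of the known miRNAs turned over, from 71 higher and 11 lower to 23 higher and 39 lower without miR-21-5p, while median-of-ratios scaling gave 56 higher and 19 lower. Of the new entries 6 were called higher and 58 lower without miR-21-5p, and 12 and 44 with median-of-ratios scaling. edgeR on whole reads called 78 higher and 69 lower, DESeq2 72 and 64. No called entry changed sign on any of these scales. Counts of lists are therefore given without miR-21-5p as well where they differ. Each count of known miRNAs below on TPM as deposited stands beside 26.3% of the known miRNAs called higher, 4.07% called lower and 174 of 270 above 0 in log2 fold change. Counts without miR-21-5p stand beside 23 known miRNAs called higher and 39 lower, and counts with median-of-ratios scaling beside 56 and 19.

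**Figure D1:**
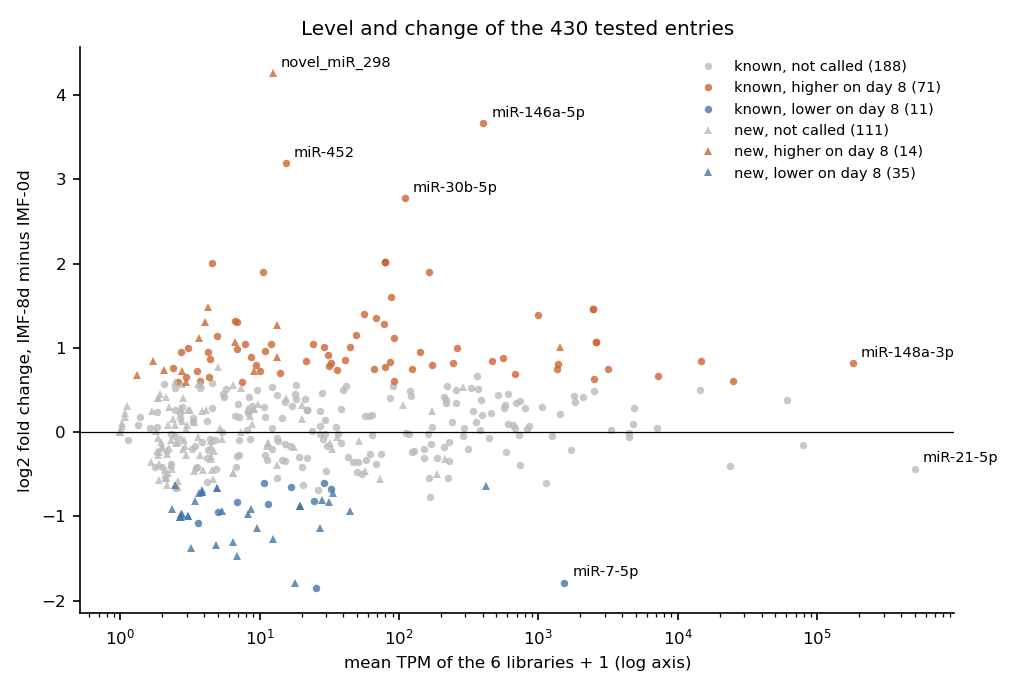
Each point is 1 of the 430 tested entries, with its mean TPM over the 6 libraries plus 1 on a log axis and its log2 fold change from IMF-0d to IMF-8d. Circles are known miRNAs and triangles new entries. Orange marks the 85 entries called higher on day 8, blue the 46 called lower, and the blue points are mostly triangles of low level.

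Of the miRNAs linked to inflammation 3 were tested and 3 called higher (26.3% of the known miRNAs were), and miR-146a-5p had the largest log2 fold change of the known miRNAs. miR-146a-5p, which restrains NF-kB signalling through TRAF6 and IRAK1, stood at 55.6, 59.9 and 51.8 TPM in the IMF-0d libraries and at 985, 682 and 557 TPM in the IMF-8d libraries. The day 8 mean was 13.3 times the day 0 mean, and the log2 fold change was 3.67 ± 0.21 (SE, adjusted p = 6.63e-05). miR-146b, with the same seed and a different 3' end, went from 47.3, 32.4 and 48.2 TPM to 151, 124 and 114 TPM (log2 fold change 1.60 ± 0.19, SE, adjusted p = 0.00226). The lowest day 8 library of each lay above the highest day 0 library, and neither call was lost under any setting tried. miR-155-5p, described as a brake on C/EBPB in fat precursors, rose from 397 ± 108 TPM to 721 ± 153 TPM (SD, n = 3), with an adjusted p of 0.0289. The miR-155-5p call was lost without IMF-0d replicate 2 or 3 or IMF-8d replicate 1 or 2 (adjusted p from 0.0567 to 0.0966) and on TPM without miR-21-5p. Without miR-21-5p 2 of the 3 were called higher, beside 23 known miRNAs in all on that scale.

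miR-224 and miR-452, which come from 1 intron of GABRE, rose together from low levels. miR-452 stood at 2.35, 1.86 and 1.87 TPM on day 0 and at 28.8, 28.9 and 22.6 TPM on day 8, a log2 fold change of 3.19 ± 0.16 (SE, adjusted p = 6.63e-05). miR-224, described as restraining fat cell differentiation, stood at 3.75, 3.94 and 2.49 TPM on day 0 and at 20.51, 14.2 and 12.1 TPM on day 8, a log2 fold change of 1.90 ± 0.24 (SE, adjusted p = 0.00232). Both were lower still on the days between, with mean levels on day 2 and day 4 of 1.39 and 1.66 TPM for miR-452 and of 0.842 and 2.15 TPM for miR-224. The rise of both lay between day 4 and day 8.

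The miR-30 family, described as promoting fat cell differentiation by targeting the bone factor RUNX2, rose in part. Of 10 tested arms, 6 were called higher and 0 lower, beside 26.3% and 4.07% of the known miRNAs, with a median log2 fold change of 0.85 beside 0.23 for the known miRNAs. miR-30b-5p stood at 28.6, 31.9 and 21.3 TPM on day 0 and at 195.03, 199 and 178 TPM on day 8 (log2 fold change 2.78 ± 0.17, SE, adjusted p = 7.13e-05). miR-30a-5p went from 544, 580 and 513 TPM to 1534, 1305 and 1443 TPM (1.38 ± 0.11, SE, adjusted p = 0.000407). Neither pair of groups came near to overlapping. miR-30e-5p, which has the same seed, was at 337 ± 57.0 TPM on day 0 and 291 ± 34.8 TPM on day 8 (SD, n = 3) and did not pass the test (adjusted p = 0.368). So the members with 1 seed ranged from -0.20 to 2.78 in log2 fold change. On TPM without miR-21-5p, 3 arms of the family were called higher and 1 lower, and with median-of-ratios scaling again 6 and 0. The call of miR-30d was lost without IMF-0d replicate 3 (adjusted p = 0.0502) and that of miR-30c-3p without IMF-8d replicate 1 (adjusted p = 0.0599).

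Of the 19 miRNAs listed as described to promote fat cell differentiation, 17 were tested, 8 were called higher and 0 lower (47.1% higher, beside 26.3% of the known miRNAs). Besides 4 of the miR-30 arms and miR-146b these were miR-210, miR-26b-5p and miR-148a-3p. miR-210, which is induced by low oxygen through HIF-1, stood at 59.8, 76.9 and 66.97 TPM on day 0 and at 300.7, 213 and 260 TPM on day 8, a mean ratio of 3.7995 and a log2 fold change of 1.90 ± 0.17 (SE, adjusted p = 0.000616). miR-26b-5p went from 336 ± 50.2 to 599 ± 65.3 TPM (SD, n = 3, adjusted p = 0.00744), a call lost without miR-21-5p (adjusted p = 0.127). miR-148a-3p, described as acting on WNT1 in fat precursors, held 13.0% ± 2.70 of the reads on day 0 and 23.0% ± 4.61 on day 8 (SD, n = 3), the largest gain in reads of any miRNA. Its log2 fold change was 0.82 ± 0.24 (SE, adjusted p = 0.0382), and the call was lost without IMF-0d replicate 1 or 3 or IMF-8d replicate 2 or 3 (adjusted p from 0.118 to 0.130) and with either rescaling. miR-21-5p is itself on this list, and when TPM was recomputed without it 4 of the remaining 16 were called higher and 1 lower.

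Of the 21 miRNAs listed as described to restrain fat cell differentiation, 19 were tested, 2 were called higher (10.5%, miR-224 and miR-155-5p) and 1 lower (5.26%), beside 26.3% and 4.07% of the known miRNAs. Without miR-21-5p 1 was called higher and 4 lower, beside 23 higher and 39 lower among all known miRNAs on that scale. With median-of-ratios scaling 2 were called higher and 2 lower, beside 56 and 19. The one that fell was miR-130a, which targets PPARG, with 26.6, 27.3 and 35.9 TPM on day 0 and 22.03, 17.6 and 11.4 TPM on day 8 (log2 fold change -0.81 ± 0.25, SE, adjusted p = 0.0441). Its call rested on the libraries and settings used. It was lost without any 1 of the IMF-0d libraries or IMF-8d replicate 2 or 3, with adjusted p from 0.0663 to 0.127. It was also lost without the filter on low values, in the fit of all 24 libraries and with the replicate block. The other 16 were not called. The membership of both lists was drawn up with results of these data known, so their counts are descriptions.

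**Figure D2:**
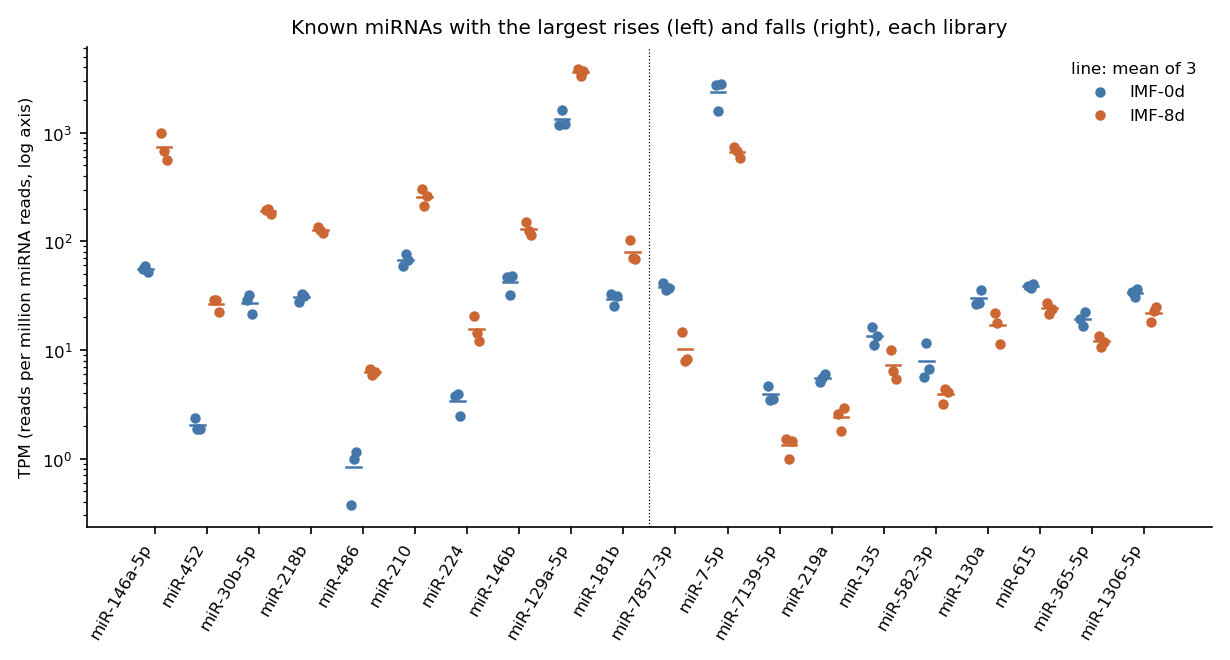
TPM on a log axis in each of the 3 IMF-0d (blue) and 3 IMF-8d (orange) libraries, with a line at each group mean, for the 10 known miRNAs with the largest rises (left) and the 10 with the largest falls (right), entries of one sequence shown once. The groups of every miRNA shown are apart, and the gap is widest for miR-146a-5p and miR-452.

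miR-218, described in the choice between bone and fat precursors, rose with little spread. It stood at 28.0, 32.7 and 31.4 TPM on day 0 and at 135, 127 and 120 TPM on day 8 (log2 fold change 2.02 ± 0.12, SE, adjusted p = 6.63e-05). The entries ssc-miR-218, ssc-miR-218-5p and ssc-miR-218b share 1 sequence up to a last base and hold nearly the same reads (27.95 TPM each in IMF-0d replicate 1), so they count as 1 measurement and cannot be assigned to the SLIT2 or the SLIT3 hairpin. The other tested members of the lineage-choice list did not pass the test, among them miR-140-5p at 66.7 ± 15.9 TPM on day 0 and 55.9 ± 15.3 TPM on day 8 (SD, n = 3). miR-129a-5p and miR-129b, also 1 sequence with a hairpin on chromosome 2 and another on chromosome 18, stood at 1173, 1617 and 1199 TPM on day 0 and at 3878, 3310 and 3731 TPM on day 8 (miR-129b, log2 fold change 1.46 ± 0.16, SE, adjusted p = 0.00163). The other arm of the chromosome 2 hairpin, miR-129a-3p, rose too, from 28.4 ± 5.23 to 52.0 ± 3.69 TPM (SD, n = 3, adjusted p = 0.00793), a call lost without miR-21-5p (adjusted p = 0.0752).

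miR-486, an intronic miRNA of the ankyrin gene ANK1 that is abundant in red cells and muscle, rose from 4, 9 and 11 reads in the IMF-0d libraries to 87, 89 and 81 reads in the IMF-8d libraries. This was 0.834 ± 0.405 and 6.27 ± 0.344 TPM (SD, n = 3). The log2 fold change came to 2.01 ± 0.19 (SE, adjusted p = 0.000872). Between these days the mean reached 1 TPM on day 8 alone, where miR-486 is high, so this call is a description. The other red cell miRNAs stayed at or near 0 on both days, as given above. The muscle miRNA miR-133a-3p was called higher as well, from 14.7 ± 3.85 to 26.6 ± 2.32 TPM (SD, n = 3, adjusted p = 0.0202). Its call was lost without IMF-0d replicate 1 or IMF-8d replicate 1 or 3 (adjusted p from 0.0537 to 0.0685) and without miR-21-5p (adjusted p = 0.132), and miR-1 and miR-499-5p did not pass the test (log2 fold changes -0.05 and -0.10, adjusted p 0.917 and 0.694).

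In the cluster of miR-199 and miR-214, 4 of 6 tested arms were called higher (26.3% of the known miRNAs were), and 2 of these 4, miR-199a-3p and miR-199b-3p, draw on the same reads. miR-199a-3p, whose sequence is that of the miR-199b-3p entry shifted by 1 base, went from 1855, 1377 and 1773 TPM to 4098, 3344 and 3093 TPM (log2 fold change 1.08 ± 0.17, SE, adjusted p = 0.00445). The 5p arm of miR-199a stayed at 4599 ± 900 and 4909 ± 772 TPM (SD, n = 3, adjusted p = 0.71). The 5p arm of miR-199b rose from 0.562% to 0.892% of the reads (group means, adjusted p = 0.00502). The shared 3p reads cannot be assigned to either hairpin. On TPM without miR-21-5p none of the 6 was called (0 higher, 0 lower), and with median-of-ratios scaling 2 were higher. In the miR-29 family, which targets collagens, miR-29b rose from 28.4 ± 2.86 to 58.2 ± 7.84 TPM (SD, n = 3, adjusted p = 0.00347). In this family 2 of 4 members were called higher, or 1 without miR-21-5p. The other called member, miR-29c, reached a mean of 1 TPM on day 8 and not on day 0, so its call is a description. In the miR-181 family, miR-181b rose from 29.6 ± 3.91 to 80.6 ± 18.6 TPM (SD, n = 3, adjusted p = 0.0027) and miR-181a from 45.2 ± 13.2 to 109 ± 13.998 TPM (SD, n = 3, adjusted p = 0.00842), while miR-181d-5p did not pass (adjusted p = 0.280), and 1 of the 3 was called higher without miR-21-5p.

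In one cluster on chromosome X most arms were called higher, and in another few. The cluster of miR-532, miR-500, miR-362 and miR-660 (4 hairpins between 43705258 and 43714144) had all 6 arms above 0 in log2 fold change, beside 174 of the 270 known miRNAs, and 5 of them called higher, beside 26.3%, with a median of 0.74. miR-532-5p, its most abundant arm, went from 1021 ± 230.3 to 1689 ± 174 TPM (SD, n = 3, adjusted p = 0.0198), a call lost without IMF-0d replicate 1 or 3 or IMF-8d replicate 1 or 3 (adjusted p from 0.0594 to 0.0675). None of the 6 was called on TPM without miR-21-5p, with a median of 0.31. The second X cluster, miR-424, miR-503, miR-450 and miR-542 (6 hairpins between 110381587 and 110387981), had 10 arms above 0 with 2 of 10 called higher (beside 26.3% of the known miRNAs), miR-424-5p and miR-542-5p. Its median was 0.28, and without miR-21-5p it was -0.03 with 1 called higher. The rare miR-542-5p (1.05 ± 0.0713 and 2.13 ± 0.548 TPM, SD, n = 3) lost its call in 9 of 16 other settings: without IMF-0d replicate 2 or 3 or IMF-8d replicate 3, without the filter on low values, in the fit of all 24 libraries, with either rescaling, by edgeR and by DESeq2. miR-424-5p, of the cell cycle restraining miR-15/16 seed, rose from 13.98, 15.1 and 15.2 TPM to 30.0, 31.2 and 33.4 TPM (log2 fold change 1.05 ± 0.12, SE, adjusted p = 0.00181) and kept its call under every setting tried. All 6 tested miRNAs with the seed AGCAGCA lay above 0, from 0.33 to 1.05, and 3 were called higher. miR-16 and miR-195 lost their calls without miR-21-5p, without the filter on low values and without IMF-0d replicate 3 or IMF-8d replicate 1. miR-195 lost it without IMF-8d replicate 2 as well, and miR-16 with median-of-ratios scaling, by edgeR and by DESeq2. miR-132, induced by CREB, rose from 29.8 ± 2.92 to 67.2 ± 7.91 TPM (SD, n = 3, adjusted p = 0.00226), and its neighbour miR-212 from 5.07 ± 1.32 to 10.4 ± 3.13 TPM (SD, n = 3, adjusted p = 0.0346). The miR-212 call was lost without IMF-0d replicate 2 or 3 or IMF-8d replicate 1 or 2 (adjusted p from 0.0733 to 0.0994) and without miR-21-5p (adjusted p = 0.246).

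**Figure D3:**
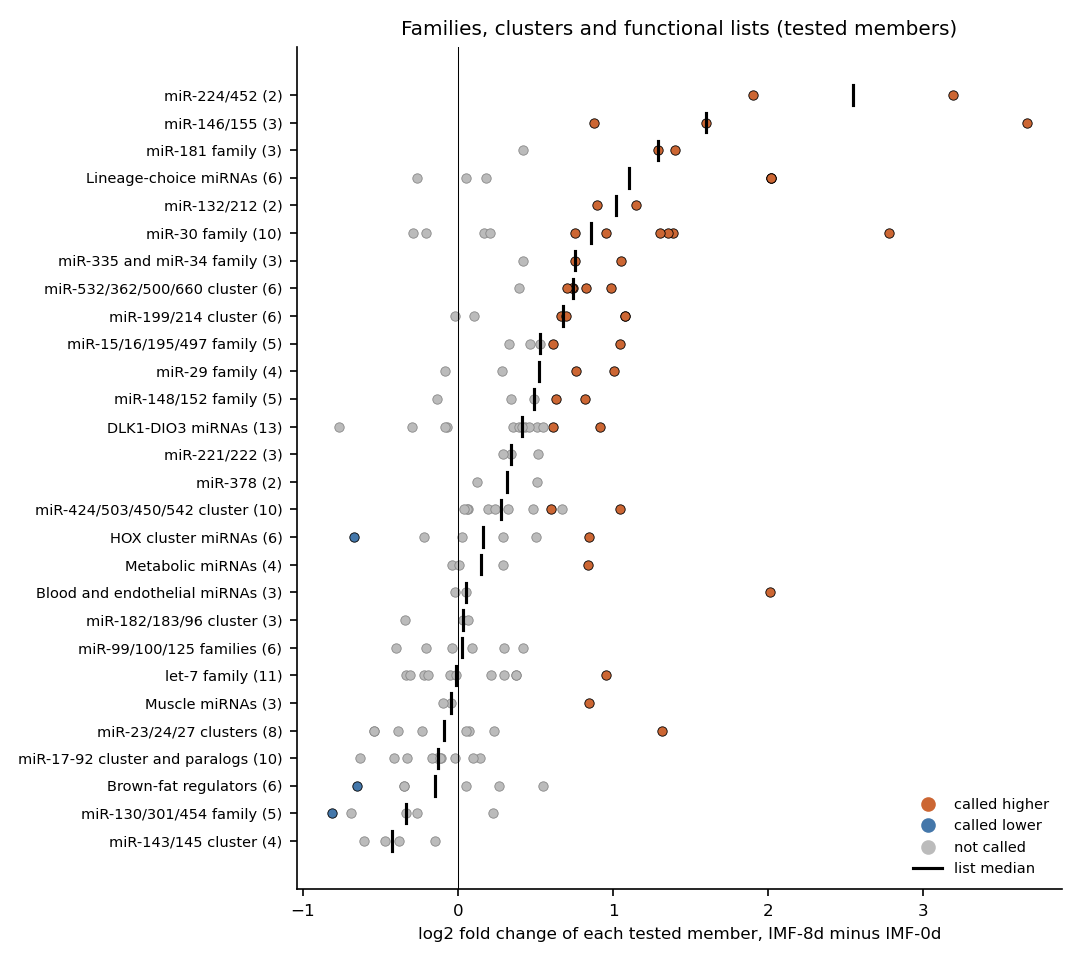
Log2 fold change from IMF-0d to IMF-8d of each tested member of the miRNA families, clusters and cell type lists, with the number tested in brackets and a black bar at the list median. The lists are ordered by median, from -0.43 for the cluster of miR-143 and miR-145 to 2.55 for the pair of miR-224 and miR-452. Orange members were called higher and blue members lower.

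The let-7, miR-17-92, miR-143 and miR-23/24/27 groups held 2 called members in all. Of 11 tested let-7 arms, which restrain proliferation, 1 was called higher and 0 lower, beside 26.3% and 4.07% of the known miRNAs. The exception was let-7i-3p, the passenger arm, at 1.88 ± 0.333 and 4.63 ± 1.14 TPM (SD, n = 3, adjusted p = 0.0089), while let-7i-5p, the main arm, held 5.23% ± 0.908 and 6.90% ± 2.02 of the reads (SD, n = 3, adjusted p = 0.275). The call of let-7i-3p was lost without miR-21-5p, where 0 let-7 arms were called higher and 1 lower. None of the 10 tested arms of the miR-17-92 cluster and its paralogs, which drive the cell cycle, was called (0 higher, 0 lower), and 8 of them lay below 0, beside 96 of the 270 known miRNAs. On TPM without miR-21-5p and with median-of-ratios scaling 1 of them was called lower. The 4 arms of the cluster of miR-143 and miR-145 all lay below 0 (median -0.43), with 0 called, and 2 were called lower on TPM without miR-21-5p. miR-27b-3p, which targets PPARG, stood at 6889 ± 496.7 and 7275 ± 1827 TPM (SD, n = 3, adjusted p = 0.859), and of the 8 tested arms of the miR-23/24/27 clusters only the rare miR-24-2-5p was called, from 2.83 ± 0.498 to 8.53 ± 1.09 TPM (SD, n = 3, adjusted p = 0.00226). In these clusters 1 was called higher and 2 lower with median-of-ratios scaling, and 1 and 3 without miR-21-5p.

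Among the 11 known miRNAs called lower on TPM as deposited, miR-7-5p was the most abundant. miR-7-5p, which targets the EGF receptor pathway, stood at 2737, 1586 and 2816 TPM on day 0 and at 745, 678 and 587 TPM on day 8, a 3.55-fold higher mean on day 0 and a log2 fold change of -1.79 ± 0.24 (SE, adjusted p = 0.00258). The lowest day 0 library lay far above the highest day 8 library. Its mean was 1118 TPM on day 2 and 1321 TPM on day 4. The other arm of a miR-7 hairpin, miR-7-3p, went the other way, from 6.61 ± 1.58 to 11.6 ± 2.26 TPM (SD, n = 3, adjusted p = 0.0383). The call of that rise was lost when any 1 of the 6 libraries was left out (adjusted p from 0.0515 to 0.128). It was also lost with either rescaling, with the replicate block and without the filter on low values. miR-7-5p has 3 exact copies in the genome and miR-7-3p 1, so the 5p reads can come from hairpins other than that on chromosome 10.

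The other falls among known miRNAs were smaller in reads. miR-7857-3p went from 41.4, 35.7 and 37.5 TPM to 14.7, 7.89 and 8.22 TPM (log2 fold change -1.85 ± 0.24, SE, adjusted p = 0.0024). miR-7139-5p, predicted in an intron of the cell cycle factor gene E2F7, went from 4.69, 3.4999 and 3.53 TPM to 1.52, 1.003 and 1.46 TPM (-1.07 ± 0.16, SE, adjusted p = 0.00347). miR-219a went from 5.55 ± 0.479 to 2.44 ± 0.573 TPM (SD, n = 3, adjusted p = 0.00675), and miR-615, of an intron of HOXC5, from 39.0 ± 1.55 to 24.3 ± 2.85 TPM (SD, n = 3, adjusted p = 0.00938). The calls of these 5 miRNAs, miR-7-5p included, held under every setting in which they were tested. miR-365-5p, the passenger arm of a miRNA of brown fat, fell from 19.5 ± 2.74 to 12.01 ± 1.45 TPM (SD, n = 3, adjusted p = 0.0217), a call lost without IMF-0d replicate 1 or 3 or IMF-8d replicate 2 or 3 (adjusted p from 0.0636 to 0.0831). The calls of miR-135, miR-582-3p, miR-1306-5p and miR-4334-3p were each lost without 4 or 5 of the 6 libraries in turn, with adjusted p up to 0.105, 0.138, 0.0725 and 0.121. The libraries concerned were IMF-0d replicates 1 and 3 and IMF-8d replicates 2 and 3 for miR-135, all but IMF-0d replicate 1 for miR-582-3p, all but IMF-0d replicate 2 and IMF-8d replicate 3 for miR-1306-5p, and all but IMF-0d replicate 2 for miR-4334-3p.

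The new entries that changed were mostly rare, as were new entries in general. The median of the mean TPM was 2.52 over all new entries, 3.95 for those called lower, 3.17 for those called higher and 1.85 for those not called. Of the 49 called, 31 had a mean under 10 TPM on both days. novel_miR_298 rose most of all entries tested, from 7, 1 and 0 reads on day 0 to 326, 320 and 281 reads on day 8, or from 0.657, 0.109 and 0 TPM to 24.9, 21.4 and 21.6 TPM. It was thus at or near the floor of 3 reads on day 0 and clear of it in every day 8 library, so its fitted log2 fold change of 4.27 depends on the pseudocount. Between these days its mean reached 1 TPM on day 8 alone, where it is high, so its call and rank are descriptions. novel_miR_650 was the most abundant new riser, at 952 TPM on day 0 and 1895 TPM on day 8 (group means, adjusted p = 0.00634). novel_miR_667 fell most among the new entries, from 26.5, 19.4 and 35.7 TPM to 7.17, 6.75 and 6.84 TPM (log2 fold change -1.79 ± 0.22, SE, adjusted p = 0.00232). novel_miR_793 fell from 9.15 ± 1.37 to 2.70 ± 0.773 TPM (SD, n = 3, adjusted p = 0.00258) and novel_miR_126 from 8.24 ± 1.88 to 2.74 ± 0.718 TPM (SD, n = 3, adjusted p = 0.00606).

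Identical sequences inflate the count of new entries. The 35 new entries called lower were 27 distinct molecules, since entries with one mature sequence, or with the same value in every library, draw on the same reads. The largest such set had 6 tested members, novel_miR_1018, novel_miR_1137, novel_miR_326, novel_miR_433, novel_miR_648 and novel_miR_930, all called lower with log2 fold changes from -0.72 to -0.66. novel_miR_1137 and novel_miR_648 lost their calls without IMF-0d replicate 3 or IMF-8d replicate 1 or 2 (adjusted p from 0.0506 to 0.0562). Over all tested entries, 430 entries were 410 molecules and the 131 called were 121, with 83 higher and 38 lower. Among the 13 distinct sequences of new fallers for which a mature sequence was at hand, 5 had more than 10 exact copies in the genome, with 3360 for novel_miR_126, and 8 of 11 hairpins found in the genome were soft-masked as repeat throughout. The 14 new risers were 14 distinct molecules, and a mature sequence was at hand for 5. These 5 each had 1 copy, and 0 of 3 hairpins found in the genome were masked throughout. Of the new entries not called, 9 of 44 sequences had more than 10 copies and 11 of 36 hairpins were masked throughout. Among known miRNAs, 0 of the 68 sequences called higher and 0 of the 11 called lower had more than 10 copies. A read with many exact copies cannot be assigned to 1 locus. These differences between groups of entries were not tested.

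Of the 17 miRNAs that the study named as key to differentiation, all 17 were tested, 8 were called lower (47.1%) and 2 higher (11.8%), beside 10.7% and 19.8% of all tested entries, and 14 distinct sequences stand behind them. Without miR-21-5p 12 were called lower and 1 higher, beside 97 lower and 29 higher of all 429 entries tested on that scale. With median-of-ratios scaling 11 were called lower and 1 higher, beside 63 and 68 of 430. They were chosen by the study on these samples, so their directions are not independent evidence. The fallers were miR-615 and 7 new entries, novel_miR_667, novel_miR_779, novel_miR_126, novel_miR_1018, novel_miR_326, novel_miR_433 and novel_miR_930. The last 4 of these are 1 sequence and count as 1 measurement. Over all new entries 35 of 160 (21.9%) were called lower. novel_miR_779 went from 12.1 ± 1.08 to 4.96 ± 0.838 TPM (SD, n = 3, adjusted p = 0.00303). The risers were miR-210 and miR-214-3p, which went from 516 ± 57.0 to 834 ± 74.5 TPM (SD, n = 3, adjusted p = 0.00805), with the call of miR-214-3p lost under both rescalings and by DESeq2. In some fits with 1 library left out 4 of the new fallers lost their calls, novel_miR_1018 without IMF-8d replicate 1 (log2 fold change -0.57, short of the fold change asked for), novel_miR_433 without IMF-0d replicate 3 or IMF-8d replicate 1 or 2, and novel_miR_326 and novel_miR_930 also without IMF-0d replicate 2 (adjusted p from 0.0505 to 0.0654). miR-339-5p (62.3 ± 5.26 and 44.0 ± 5.39 TPM, SD, n = 3) had an adjusted p of 0.0288 but a log2 fold change of -0.50, short of the fold change asked for, and miR-185, miR-199a-5p, miR-370 and miR-874 did not pass the test.

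Both arms of 59 hairpins were tested. They shared the sign of change in 37, and in 9 both were called, 8 in the same direction and 1, miR-7, in opposite directions. In 16 hairpins only 1 arm was called, among them miR-199a, whose 3p reads are shared with miR-199b. The median distance between the arms was 0.40 in log2 fold change, and arms were furthest apart in miR-30b, at 2.78 for the 5p arm and 0.17 for the 3p arm, which stood at 1.55 ± 0.380 and 1.85 ± 0.315 TPM (SD, n = 3).

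The median course of the rises lagged behind that of the falls until day 4. For each called miRNA the share of its day 0 to day 8 change in log2(TPM + 1) that was reached on day 2 and day 4 was read from the 3 libraries of each of those days. The 85 risers had reached a median of 18.04% on day 2 and 18.7% on day 4, with 15 past the midpoint on day 4 and 22 still on the opposite side of their day 0 level. The 46 fallers had reached 35.4% on day 2 and 66.8% on day 4, with 39 past the midpoint and 0 on the opposite side. On TPM without miR-21-5p the shares on day 4 were 16.2% and 55.3%, with 28 risers and 29 fallers past the midpoint. With median-of-ratios scaling they were 33.4% and 52.5%, with 32 and 25 past it. The day 0 and day 8 libraries chose these miRNAs and the day 0 libraries enter every share, so the values are descriptions without a test.

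Single miRNAs showed how late the rises were. miR-146a-5p was at 55.8 TPM on day 0, 43.2 TPM on day 2, 38.0 TPM on day 4 and 742 TPM on day 8 (group means). miR-210 was at 67.9, 61.2 and 58.7 TPM on the 3 earlier days and at 258 TPM on day 8. miR-146b dipped from 42.6 TPM to 7.69 TPM on day 2, returned to 34.8 TPM on day 4 and reached 130 TPM on day 8. Among the risers past the midpoint on day 4, miR-214-3p had reached 90.7% and miR-708-5p 87.4% of its change by day 4. Of the fallers, miR-219a had reached 97.4% and novel_miR_793 70.9% by day 4, while miR-7857-3p had reached 30.5%.

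**Figure D4:**
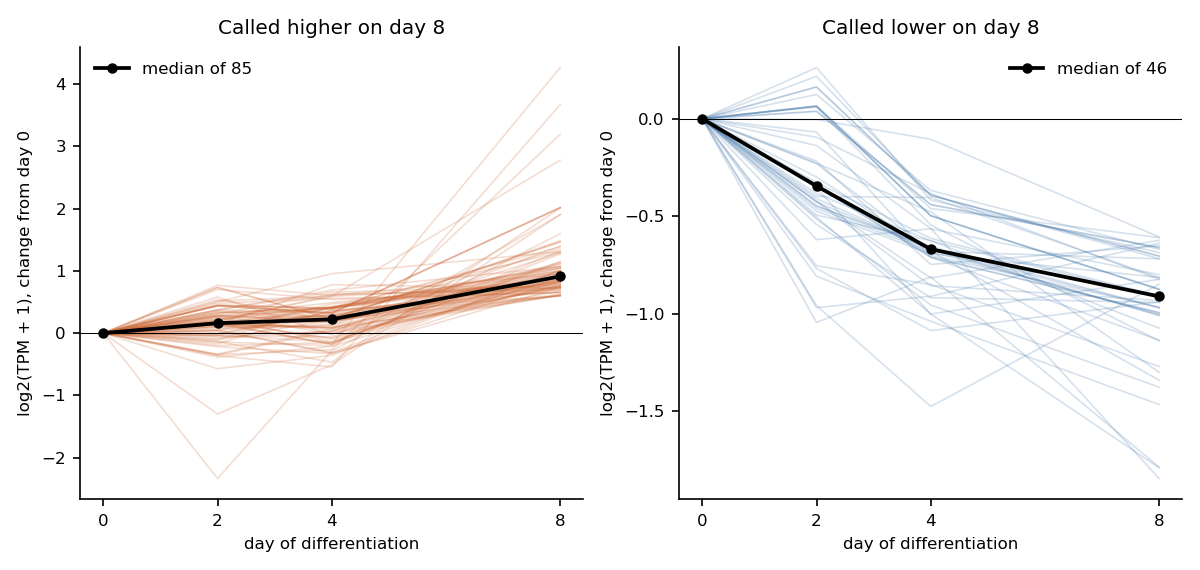
Change in mean log2(TPM + 1) from day 0 on days 0, 2, 4 and 8 of intramuscular cells, 1 thin line per called entry, with the 85 called higher on the left, the 46 called lower on the right and the median in black. The left median is at 0.16 on day 2, 0.22 on day 4 and 0.91 on day 8, while the right median is at -0.67 on day 4 and -0.91 on day 8.

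Whether the change was particular to intramuscular cells was tested by the interaction, the day 0 to day 8 change in IMF minus that in BF, in 12 libraries. It passed an FDR of 0.05 in 95 of 430 entries (22.1%), 32 positive (7.44%) and 63 negative (14.7%). Of all tested entries, 15 were under 1 TPM in IMF-0d, IMF-8d and BF-0d and reached it in BF-8d, and 12 of the 63 were among them. These 12 were tested through libraries in which they were high, which favoured a difference, so they support nothing. novel_miR_21 is 1 of these 12 and also 1 of the 85 called higher. Across the 430 entries the log2 fold changes of both sources had a Pearson correlation of 0.52 and shared their sign in 285 (66.3%), which describes these 12 libraries. Of the 85 miRNAs called higher in IMF, 74 (87.1%) were also above 0 in BF, and the interaction was called for 22 of them, 12 positive and 10 negative. Of the 46 called lower in IMF, 29 (63.0%) were also below 0 in BF, and the interaction was called for 20, all negative. In 15 of those 20 the log2 fold change in BF was above 0, and in the other 5 it was less negative. Entries of 1 sequence recur among them, so the 20 are 15 distinct molecules and the 15 are 10. Because the interaction shares the IMF libraries with the calls, these counts are read only beside 22.1%. With median-of-ratios scaling the interaction was called in 55 positive and 59 negative, and on TPM without miR-21-5p in 30 positive and 37 negative. edgeR called 50 positive and 48 negative, DESeq2 53 and 66.

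miR-146a-5p rose more in IMF than in BF. Its BF means were 179 TPM on day 0 and 562 TPM on day 8, a log2 fold change of 1.68 beside 3.67 in IMF, and the interaction was 2.00 ± 0.32 (SE, adjusted p = 0.000159). The IMF mean was below the BF mean on day 0 and above it on day 8. miR-708-5p, miR-335, miR-214-3p and miR-195 rose in IMF and lay below 0 in BF. For miR-335, whose means were 6.84 and 15.5 TPM in IMF and 8.79 and 6.73 TPM in BF, the interaction was 1.39 ± 0.29 (SE, adjusted p = 0.00219). The IMF call of miR-335 was itself lost without IMF-0d replicate 3 or IMF-8d replicate 1 or 2 (adjusted p from 0.0510 to 0.0566), and so was that of miR-195 (adjusted p from 0.05003 to 0.0558). For miR-708-5p the interaction was 1.48 ± 0.31 (SE, adjusted p = 0.00219), with its IMF call lost without IMF-0d replicate 2 or 3 or IMF-8d replicate 1 (adjusted p from 0.0513 to 0.0745).

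Other risers climbed less in IMF than in BF. miR-210 reached 258 TPM in IMF-8d and 498 TPM in BF-8d from 67.9 and 17.8 TPM on day 0, and its interaction was -2.81 ± 0.27 (SE, adjusted p = 3.18e-07). miR-29b had an interaction of -2.36 ± 0.29 (SE, adjusted p = 5.82e-06), with 190.0 TPM in BF-8d beside 58.2 TPM in IMF-8d. The interaction was also negative for miR-146b, miR-224 and miR-129b. In contrast, miR-30b-5p, miR-218 and miR-30a-5p rose in both sources with interactions of -0.15 ± 0.25, -0.39 ± 0.21 and 0.20 ± 0.20 (SE) that did not pass (adjusted p 0.683, 0.202 and 0.487), which does not show that the changes were alike. Among the fallers, novel_miR_126 went from 7.75 to 17.8 TPM in BF while it fell in IMF (interaction -2.32 ± 0.46, SE, adjusted p = 0.00125), and miR-365-5p went from 21.5 to 36.1 TPM in BF (-1.37 ± 0.27, SE, adjusted p = 0.00145).

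**Figure D5:**
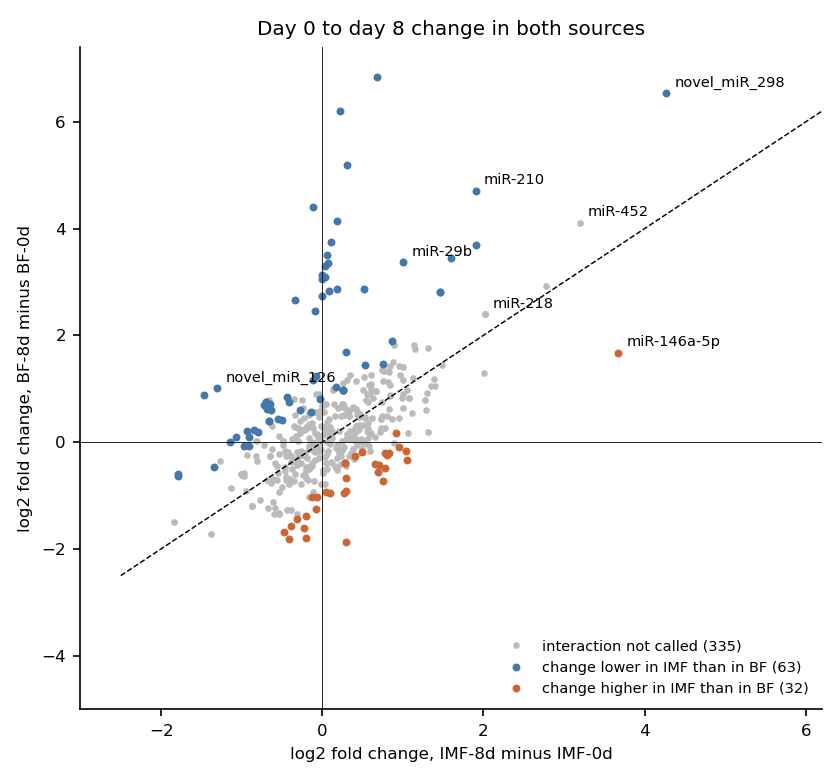
Log2 fold change from day 0 to day 8 in intramuscular cells (x axis) and subcutaneous cells (y axis) for the 430 tested entries, with a dashed line of equal change. Blue marks the 63 entries whose change was lower in IMF, orange the 32 whose change was higher. miR-146a-5p lies below the line and miR-210, miR-29b and novel_miR_298 above it.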

How the data were processed

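Small RNA was read as single-end reads of 50 nt. Per the study's methods, the authors mapped clean reads to Sscrofa11.1 by Bowtie without mismatches, removed other annotated small RNA, matched reads to miRBase for known miRNAs, used miRDeep2 for new ones and tested with DESeq2. The deposited values, which the authors call TPM, are RPM: reads per 1000000 reads counted on listed miRNAs. Each column holds whole multiples of the worth of 1 read, within 0.000744 of a whole number, so whole reads were recovered. No use of molecular identifiers is stated, so duplicates were kept.

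The main test was limma 3.58.1 (eBayes with trend, R 4.3.3) on log2(TPM + 1) of the IMF-0d and IMF-8d libraries, two-sided, over entries with mean TPM of at least 1 in the 24 libraries. The interaction used 12 libraries. Groups came from sample titles. The entries, the lists and the tests were chosen with earlier results of these data known. Named are the top rising and falling DE-miRNAs, known and new, the largest called members and the most abundant member of each list, the key miRNAs of the study, the 10 most abundant entries, the largest interactions, and other arms or entries of one sequence. Passing the filter through 1 day only were 12 tested entries under 1 TPM on day 0 and 29 under 1 TPM on day 8, and 21 were under 1 TPM on both. Of the called entries, 6 risers were under 1 TPM on day 0 only, miR-29c, miR-324, miR-486, novel_miR_298, novel_miR_710 and novel_miR_978. Another 8 fallers were under it on day 8 only, novel_miR_116, novel_miR_261, novel_miR_459, novel_miR_473, novel_miR_524, novel_miR_575, novel_miR_71 and novel_miR_786. The calls of these entries are descriptions. Mature sequences and hairpin positions came from a supplementary table of the study for 336 of the 430 entries, and 309 hairpins were found at their positions in Sscrofa11.1 and annotated with RefSeq genes. Settings varied 1 at a time were the pseudocount (0.1), the filter (none, or 10 TPM), fits of all 24 or of the 12 IMF libraries, a block for the replicate number, scaling by the median of ratios, TPM without miR-21-5p, merged identical sequences, FDR alone, edgeR 4.0.16, DESeq2 1.42.0 and leaving out each library. The scalings of lists and of the time course were added after seeing the data. Fits were tested on simulated data. Replicates are separate libraries of 1 group, and as nothing links them to piglets, p-values measure the spread between these libraries. The mRNA libraries were not analysed here. Python 3.11.15, pandas 2.3.3, NumPy 2.4.6 and Matplotlib 3.10.9 were used.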

Additional observations from a re-analysis of the deposited data

Results flagged for a closer look

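In 95 of 430 entries the course from day 0 to day 8 was unequal in IMF and BF by the limma test of the difference between both changes (IMF minus BF, 12 libraries, FDR of 0.05). The 48 named entries among them are given here as values on the log2 scale.

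Among known miRNAs the difference was positive, so the change was higher in IMF, for miR-99a-3p (2.16), miR-146a-5p (2.00), miR-99a-5p (1.60), miR-708-5p (1.48), miR-10383 (1.40), miR-335 (1.39), miR-214-3p (1.26), miR-195 (1.21), miR-145-3p (1.21), let-7i-3p (1.05), miR-151-5p (1.03), miR-27b-3p (0.99), miR-185 (0.96), miR-136-3p (0.75) and miR-26a (0.68). Both arms of miR-99a, miR-185 and miR-10383 were not called within IMF and had lower means on day 8 than on day 0 in BF, with miR-99a-5p going from 4155 to 1170 TPM there and from 1846 to 1599 TPM in IMF (group means). The difference was negative for miR-182 (-3.28), miR-210 (-2.81), miR-29b (-2.36), miR-221-5p (-2.35), miR-146b (-1.84), miR-224 (-1.78), miR-365-5p (-1.37), miR-129a-5p and miR-129b, which are 1 sequence (-1.35 each), miR-29a-5p (-1.31), miR-7-5p (-1.19), miR-7139-5p (-1.18), miR-135 (-1.07), miR-129a-3p (-1.03) and miR-34a (-0.71). miR-182 was not called in IMF, at 383 and 372 TPM there and at 129 and 1290 TPM in BF (group means on day 0 and day 8), and neither was miR-221-5p, at 302.5 and 434 TPM in IMF and at 229 and 1864 TPM in BF. The difference of miR-224, which was near 0 in BF-0d, ranged from -4.90 to -1.55 over the settings. The call of the difference was lost for miR-7-5p in 10 of 22 other settings, for miR-135 in 8 of 21, for let-7i-3p in 12 of 21, for miR-136-3p in 10 of 22, for miR-34a in 9 of 22, for miR-29a-5p in 9 of 21, for miR-26a in 7 of 22, for miR-129a-3p in 3 of 22, and for miR-145-3p and miR-185 in 1 of 22 each. The libraries whose removal lost it were IMF-0d replicates 1 and 3, IMF-8d replicates 2 and 3, BF-0d replicate 2 and BF-8d replicates 2 and 3 for miR-7-5p, and IMF-0d replicate 1, IMF-8d replicates 2 and 3, BF-0d replicate 2 and BF-8d replicates 1 and 3 for miR-135. They were all IMF libraries but IMF-0d replicate 2, with BF-0d replicate 3 and BF-8d replicate 3, for miR-136-3p, and the same with BF-0d replicate 1 for let-7i-3p. For miR-34a they were IMF-0d replicates 2 and 3, IMF-8d replicates 2 and 3, BF-0d replicate 2 and BF-8d replicates 2 and 3, and for miR-29a-5p IMF-8d replicates 1 and 2, BF-0d replicate 2 and BF-8d replicates 2 and 3. For miR-26a they were IMF-0d replicates 2 and 3, IMF-8d replicates 1 and 2 and BF-0d replicates 1 and 2, and for miR-129a-3p BF-8d replicate 3.

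Among new entries called in IMF the difference was negative for novel_miR_793 (-2.35), novel_miR_126 (-2.32), novel_miR_298 (-2.27), novel_miR_326 and novel_miR_930 (-1.45 each), novel_miR_433 (-1.42), novel_miR_1018 (-1.30), novel_miR_667 (-1.16), novel_miR_779 (-1.15), novel_miR_1137 and novel_miR_648 (-1.05 each) and novel_miR_478 (-0.87). That of novel_miR_298, near the floor on day 0, ranged from -4.61 to -2.03 over the settings. The call was lost for novel_miR_478 in 12 of 21 other settings, for novel_miR_1018 in 10 of 20, for novel_miR_667 in 5 of 22, for novel_miR_433 in 4 of 20, and in 1 setting each for novel_miR_326, novel_miR_930 and novel_miR_779. Removing 1 library lost it for novel_miR_478 with any but IMF-0d replicate 1, BF-0d replicate 2 and BF-8d replicate 1, for novel_miR_1018 with any but IMF-0d replicates 1 and 3, IMF-8d replicate 3, BF-0d replicate 3 and BF-8d replicate 3, for novel_miR_667 with IMF-0d replicate 3 or BF-8d replicate 2, and for novel_miR_433 with IMF-8d replicate 1, BF-0d replicate 1 or BF-8d replicate 2. The differences furthest below 0 are descriptions without support. They came from entries with means of at most 1.03 TPM on day 0 in both sources, novel_miR_21 (-6.16), novel_miR_848 (-5.97), novel_miR_623 (-4.89), novel_miR_1222 (-4.51), novel_miR_744 (-3.96) and novel_miR_266 (-3.65), and with such levels the size depends on the pseudocount. All but novel_miR_1222 belong to 12 entries among the 95 that were under 1 TPM in IMF-0d, IMF-8d and BF-0d. Those 12 passed the filter through other libraries, with BF-8d above it, which favoured a difference. By edgeR on whole reads 5 of these 6, all but novel_miR_1222, had no such difference past the threshold (adjusted p = 0.9997) although the fitted difference kept its direction, and over all settings it ranged from -7.91 to -5.93 for novel_miR_21 and from -9.27 to -5.52 for novel_miR_848. novel_miR_744 was not called by DESeq2 either. Of the 6, novel_miR_21 alone was called within IMF, and that call was lost without any 1 of the IMF-0d libraries or IMF-8d replicate 2 or 3 (log2 fold change from 0.44 to 0.82 with 1 library left out). novel_miR_21 held 0 reads in the 3 IMF-0d libraries, 4, 6 and 16 reads in the IMF-8d libraries and a mean of 114.7 TPM in BF-8d.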

How the results depend on the processing

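Of the 80 named and called miRNAs, 32 kept their call under every setting in which they were tested and none changed direction under any of the 18 alternatives. The number of DE-miRNAs was 131, with 70 when no low entry was removed and 76 at a mean of at least 10 TPM, and 90 to 142 with 1 library left out. The number of entries whose change differed between IMF and BF was 95, with 51 at a mean of at least 10 TPM and 73 to 108 with 1 library left out. Of the 48 named entries with such a difference, 26 kept it under every setting in which they were tested. The tests without a filter and with the stricter one ran on more and on fewer entries. Unadjusted p was under 0.05 for 200 entries. With the replicate number as a block, 128 and 75 entries were called. Same-numbered IMF-0d and IMF-8d libraries deviated together with r of 0.26, 0.04 and -0.20, and differently numbered ones with r from -0.34 to 0.30. With 3 libraries a group these values cannot show whether the numbers pair the samples. Scaling moved the balance of rises and falls, as given with the counts above. Depth limits entries near 1 TPM, where 1 read moves the value by up to 0.109 TPM. The results on rescaled lists and courses were chosen after seeing the data.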

Other observations

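Further lists of miRNAs are given here as values without explanation, beside 26.3% of known miRNAs called higher and 4.07% called lower. Without miR-21-5p 23 known miRNAs were called higher and 39 lower, and with median-of-ratios scaling 56 and 19. Of 13 tested miRNAs of the imprinted DLK1-DIO3 region, 2 were called higher (15.4%) and 0 lower, with a median log2 fold change of 0.41. The abundant miR-381-3p held 1.97% of the reads on day 0 and 3.005% on day 8 (group means, limma adjusted p = 0.0408), a call lost without IMF-0d replicate 1 or 3 or IMF-8d replicate 2 or 3 (adjusted p from 0.114 to 0.138), without the filter on low values, with either rescaling, by edgeR and by DESeq2. miR-136-3p had a log2 fold change of 0.91 (adjusted p = 0.0024). Of the 13, 0 were called higher and 1 lower on TPM without miR-21-5p. Among 6 tested miRNAs of the HOX clusters 1 was called higher and 1 lower (16.7% each), or 0 and 1 without miR-21-5p. miR-10b went from 1.07% to 1.85% of the reads (adjusted p = 0.0408) and miR-615 fell, as given above. The miR-10b call was lost without IMF-0d replicate 1 or 3 or any 1 of the IMF-8d libraries (adjusted p from 0.0870 to 0.117), without the filter on low values, with the replicate block and with either rescaling.

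No member passed the test for miR-221 and miR-222 (3 tested), miR-378 (2 tested), the miR-99, miR-100 and miR-125 families (6 tested) or the cluster of miR-182, miR-183 and miR-96 (3 tested), with 0 called higher and 0 lower in each. Their median log2 fold changes were 0.34, 0.31, 0.02 and 0.03. In the miR-99, miR-100 and miR-125 families 1 member was called lower on TPM without miR-21-5p. Of 6 tested regulators of brown fat, miR-365-5p alone was called (lower), and 2 were called lower without miR-21-5p. Of the 3 tested members of miR-335 and the miR-34 family 2 were called higher (66.7%), miR-335 and miR-34a, with 0 called on TPM without miR-21-5p.

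Some members of the remaining lists are described above. Of 5 tested members of the miR-148 and miR-152 family 2 were called higher and 0 lower, miR-148a-3p and miR-148b-3p, with a median of 0.49 and 0 called with either rescaling. The call of miR-148b-3p was lost by edgeR, by DESeq2 and without IMF-0d replicate 3 or IMF-8d replicate 1 as well. Of 5 tested members of the miR-130, miR-301 and miR-454 family miR-130a alone was called, with a median of -0.33, and 2 were called lower with median-of-ratios scaling and 3 without miR-21-5p. Of 4 tested metabolic miRNAs miR-26b-5p alone was called, with a median of 0.15 and 0 called without miR-21-5p. Of 3 tested miRNAs of blood and endothelium miR-486 alone was called, with a median of 0.05.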
